A study of Mus musculus with 9 samples.

Results

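The circadian clock genes described here are 10 genes taken by symbol from a table of 55253: the activator gene Clock, its repressors Per1, Per2, Per3, Cry1 and Ciart, the nuclear receptor genes Nr1d1 and Nr1d2, and the output regulators Dbp and Tef. All 10 were present, and all 10 passed the filter on low values (a mean of at least 1 CPM, the count scaled to a common library size, over the libraries). RNA of 9 livers, all from male C57Bl/6J mice, was measured by sequencing of transcript 3′ ends, so a value does not depend on transcript length. The WD+alcohol group held 5 mice that received a Western diet, used to bring on fatty liver in rodents, and sweetened water with 10% alcohol for 23 weeks, starting at the age of 10 weeks. The control group held 4 mice of the same strain and sex on chow and tap water, titled with the same 23 weeks; their age is not stated apart from that of the fed mice. Diet, sugar and alcohol were given together, so the groups measure their joint effect. The time of day at which livers were taken, and the time of the last meal, are not given in the sources used here.

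The mammalian clock is a loop of transcription and repression that runs in nearly every cell and takes about a day. CLOCK and BMAL1 (gene Arntl) bind E-box sequences and switch on the Per, Cry, Nr1d, Dbp, Tef and Ciart genes; PER and CRY proteins then shut CLOCK and BMAL1 down, and the NR1D receptors (REV-ERB alpha and beta) repress Arntl, Npas2, Cry1, Clock and Nfil3 through ROR response elements. DBP and TEF are activators of D-box sequences, and NFIL3 is a repressor of the same sequences. In the liver of nocturnal mice the transcripts follow one another through the day: Nr1d1 is high toward the middle of the light phase, then Dbp, Per3, Nr1d2 and Tef, then Per1 and Per2 around dusk, with Cry1, Npas2, Clock, Arntl and Nfil3 high in the later night and around dawn. The liver clock is set mainly by feeding, glucocorticoids and body temperature.

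The regulatory letters next to the start sites are shown first. RefSeq promoter windows of build GRCm38.p6, used for these letters alone since the study's reads were mapped to GRCm39 (250 bases before to 50 bases after a start site) were at hand for 9 of the 10 members, in 13 windows, and were searched on both strands for the E-box CACGTG, the D-box TTANGTAA, the ROR response element ANTNGGTCA and the cyclic AMP response element TGACGTCA. None of these motifs contains another. An E-box was found in windows of Ciart, Cry1, Per1 and Tef, and 7.15% of all 32851 promoter windows held one. A D-box was found only in the window of Per3, against 2.32% of all windows. No member window held the ROR response element (2.24% of all windows) or the cyclic AMP response element (1.79%). Outside the members, windows of Arntl and Nfil3 each held 1 ROR response element. A match is a description of the letters, not a site of binding. The 4 windows below are shown because Per3 and Tef followed Dbp from library to library and Ciart and Cry1 did not, as given further on; motif letters are in capitals. Per3 lies at chr4:151044616-151044915 on the minus strand, with D-boxes that begin at positions -205 and -158 from the start site. Tef, in the second of its windows, lies at chr15:81811164-81811463 on the plus strand, with an E-box at position -138. Ciart lies at chr3:95882179-95882478 on the minus strand, with E-boxes at positions -116, -58 and -44. Cry1 lies at chr10:85185005-85185304 on the minus strand, with an E-box at position -60.
Per3: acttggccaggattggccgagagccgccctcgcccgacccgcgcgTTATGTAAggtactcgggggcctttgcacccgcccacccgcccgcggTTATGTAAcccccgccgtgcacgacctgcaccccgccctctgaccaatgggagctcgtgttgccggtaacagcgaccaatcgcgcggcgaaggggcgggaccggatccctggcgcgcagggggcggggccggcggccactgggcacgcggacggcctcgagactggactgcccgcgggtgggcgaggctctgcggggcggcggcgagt
Tef: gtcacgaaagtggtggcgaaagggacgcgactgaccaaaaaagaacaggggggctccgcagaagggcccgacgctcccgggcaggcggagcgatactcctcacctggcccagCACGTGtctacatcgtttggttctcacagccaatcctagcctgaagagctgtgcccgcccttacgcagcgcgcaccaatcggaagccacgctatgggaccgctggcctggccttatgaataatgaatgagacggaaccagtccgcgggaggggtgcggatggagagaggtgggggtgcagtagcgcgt
Ciart: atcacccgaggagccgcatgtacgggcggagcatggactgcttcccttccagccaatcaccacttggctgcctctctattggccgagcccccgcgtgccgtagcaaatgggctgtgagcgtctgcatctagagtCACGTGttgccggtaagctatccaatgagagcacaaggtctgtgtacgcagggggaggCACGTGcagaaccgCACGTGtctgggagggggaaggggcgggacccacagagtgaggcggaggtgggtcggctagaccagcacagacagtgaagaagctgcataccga
Cry1: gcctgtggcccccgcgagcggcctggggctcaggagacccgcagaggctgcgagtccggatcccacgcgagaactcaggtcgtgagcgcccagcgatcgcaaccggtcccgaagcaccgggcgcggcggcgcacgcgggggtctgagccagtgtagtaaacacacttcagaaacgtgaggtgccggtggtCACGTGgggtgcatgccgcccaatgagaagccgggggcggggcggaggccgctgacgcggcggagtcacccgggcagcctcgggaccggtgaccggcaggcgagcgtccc

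Libraries held 3635860 to 6643645 reads in genes, and every 2 libraries differed by more than counting noise. Each library was taken as 1 mouse, as the study's design gives 5 and 4 mice. Hepatocyte RNA was present in every library: Alb, serum albumin, stood at 14342 to 23414 CPM in WD+alcohol livers and at 26685 to 42089 CPM in control livers. Some markers of other cells varied little between livers. Col1a1, a stellate cell marker, stood at 1859 to 2217 CPM in WD+alcohol livers and 1924 to 2174 CPM in control livers. Sox9, a cholangiocyte marker, stood at 92.6 to 118 CPM and 90.9 to 109 CPM. Where this RNA came from was not tested. Of all 14759 genes tested, 238 rose and 100 fell with WD+alcohol at an adjusted p under 0.05 (limma-trend on log2(CPM + 1), Benjamini-Hochberg).

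Against that background of 2.29% of genes called, 0 of the 10 clock genes were called with limma-trend, and 0 had an unadjusted p under 0.05, which 12.2% of all genes had. The count was also 0 with edgeR on recovered reads (0 at an unadjusted p under 0.05) and 0 with DESeq2 (0 at an unadjusted p under 0.05), where 2.13% and 3.69% of genes were called. The values of the groups overlapped for all 10 members, while they did not overlap for 5.34% of all genes. Without both WD+alcohol 2 and control 3 the limma-trend count of members was again 0, against 1.67% of genes called, and 1 member (Nr1d1) had an unadjusted p under 0.05, as 12.3% of all genes did. The median log2 fold change of the members was -0.03, against -0.0008 for all genes. In bulk liver, fewer cells of a type and less RNA per cell cannot be told apart.

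**Figure D1:**
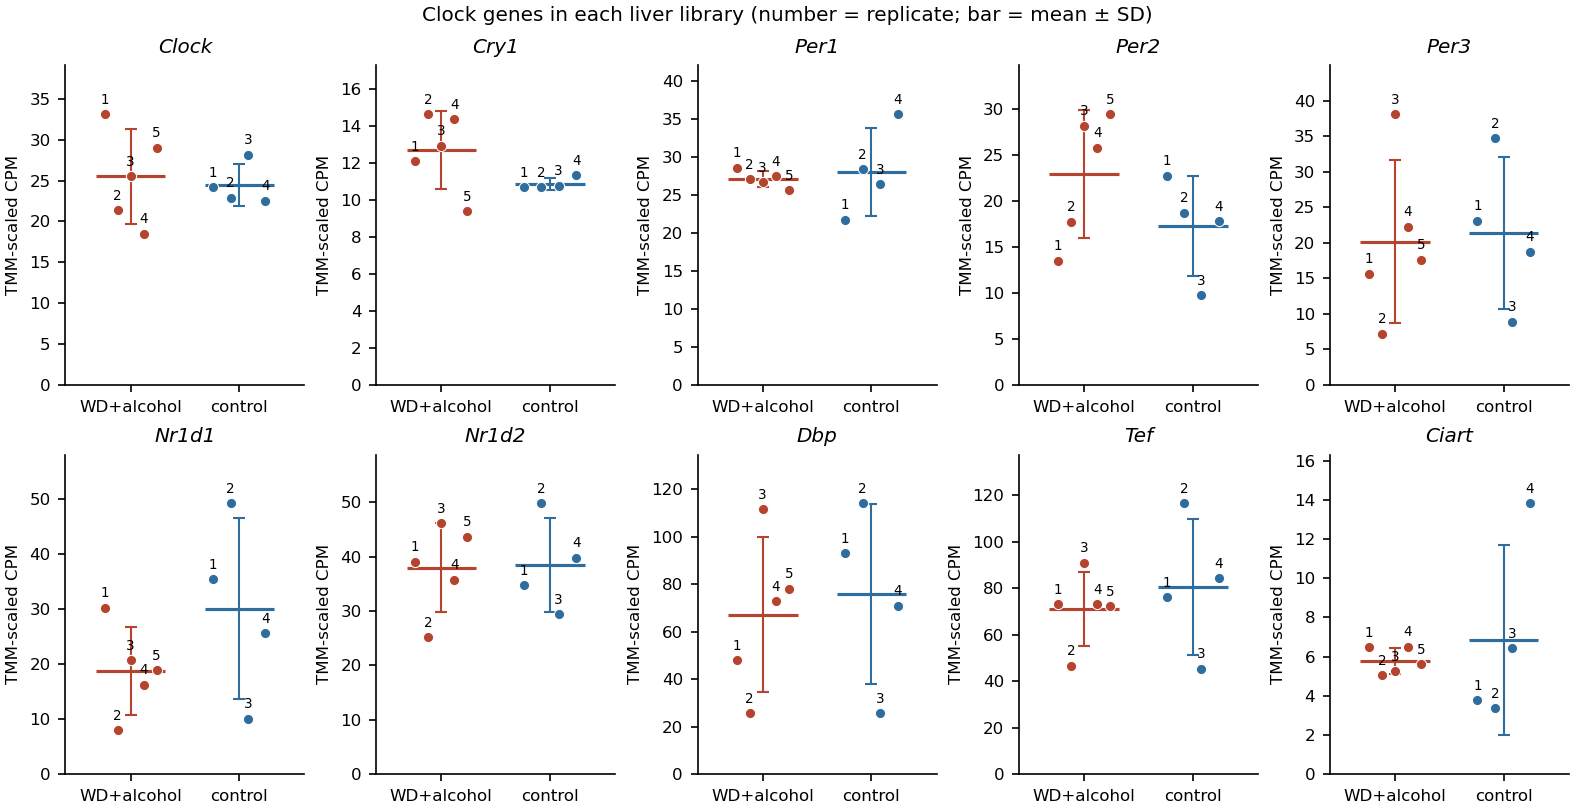
TMM-scaled CPM of the 10 clock genes in each library, WD+alcohol left and control right, with the replicate number at each point and the mean and SD as a line and bar. The groups overlap in every panel, and WD+alcohol 2 and control 3 are the lowest of their groups for Dbp, Per3, Nr1d1, Nr1d2 and Tef.

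Clock, which encodes the DNA-binding partner of BMAL1, stood at 33.2, 21.4, 25.5, 18.5 and 29.0 CPM in WD+alcohol livers 1 to 5, against 24.2, 22.9, 28.2 and 22.5 CPM in control livers 1 to 4. The control values lay inside the range of the WD+alcohol values. Its log2 fold change was 0.04 ± 0.15 (SE; 95% interval -0.29 to 0.36; limma-trend adjusted p = 0.962).

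Cry1 encodes cryptochrome 1, a strong repressor of CLOCK and BMAL1. It stood at 12.1, 14.7, 13.0, 14.4 and 9.41 CPM in WD+alcohol livers, against 10.7, 10.7, 10.8 and 11.4 CPM in control livers. The control livers were nearly alike, with an SD of 0.319 CPM against 2.12 CPM in WD+alcohol livers, and 4 of the 5 WD+alcohol livers stood above them. On the log2(CPM + 1) scale the control SD was 0.038, below the 0.169 that counting alone gives over the 9 libraries. The likeness of the control livers is therefore closer than their reads can resolve. The log2 fold change was 0.19 ± 0.14 (SE; 95% interval -0.11 to 0.49; adjusted p = 0.659). WD+alcohol 5 was the exception, and without it the log2 fold change was 0.29 and the adjusted p 0.443.

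Per1, a period gene that glucocorticoids and cyclic AMP can also induce, stood at 28.6, 27.0, 26.7, 27.4 and 25.6 CPM in WD+alcohol livers, against 21.8, 28.4, 26.4 and 35.6 CPM in control livers. Here it was the WD+alcohol livers that were alike (SD 1.08 CPM, against 5.77 CPM in controls), and control 4 was highest. On the log2(CPM + 1) scale the SD of the WD+alcohol livers was 0.055, below the 0.116 that counting alone gives over the 9 libraries. The log2 fold change was -0.03 ± 0.12 (SE; 95% interval -0.29 to 0.23; adjusted p = 0.962), and it turned positive without control 4 (0.09) and with all libraries rescaled to one total (0.02).

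Per2, the period gene that feeding and temperature cues reach directly, stood at 13.5, 17.7, 28.2, 25.8 and 29.4 CPM in WD+alcohol livers, against 22.7, 18.7, 9.73 and 17.8 CPM in control livers. WD+alcohol 3, 4 and 5 were above every control liver, and WD+alcohol 1 and 2 were inside the control range. The log2 fold change was the most positive among the members, 0.39 ± 0.25 (SE; 95% interval -0.14 to 0.93; adjusted p = 0.590), and it was 0.56 without WD+alcohol 1 (adjusted p = 0.350) and 0.16 without control 3.

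Nr1d1 encodes REV-ERB alpha, a receptor that represses Arntl and lipid genes in the liver. It stood at 30.2, 7.95, 20.6, 16.2 and 18.8 CPM in WD+alcohol livers, against 35.4, 49.2, 10.1 and 25.6 CPM in control livers. The mean was 18.8 ± 8.02 CPM in WD+alcohol livers (SD, n = 5) and 30.1 ± 16.5 CPM in control livers (SD, n = 4). WD+alcohol 2 and control 3 stood far below the others of their groups. The log2 fold change was the most negative among the members, -0.56 ± 0.39 (SE; 95% interval -1.42 to 0.29; adjusted p = 0.641). It was -0.99 without control 3 (adjusted p = 0.179), -0.27 without control 2 (adjusted p = 0.852), and -0.74 without both WD+alcohol 2 and control 3 (adjusted p = 0.167), the lowest adjusted p of any member under any alternative.

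The other receptor gene, Nr1d2 (REV-ERB beta), stood at 39.1, 25.2, 46.2, 35.8 and 43.6 CPM in WD+alcohol livers, against 34.8, 49.8, 29.4 and 39.8 CPM in control livers. It moved over a smaller range than Nr1d1, and the same libraries were lowest. Its log2 fold change was -0.02 ± 0.17 (SE; 95% interval -0.40 to 0.36; adjusted p = 0.982).

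Dbp encodes an activator of D-boxes and is among the transcripts with the largest daily swing in liver. It stood at 48.0, 25.7, 112, 72.7 and 78.1 CPM in WD+alcohol livers, against 93.1, 114, 25.7 and 70.9 CPM in control livers. The mean was 67.2 ± 32.5 CPM in WD+alcohol livers (SD, n = 5) and 75.9 ± 37.8 CPM in control livers (SD, n = 4). The lowest value of each group was the same to 3 digits and the highest values were close, so that the groups covered one range. The log2 fold change was -0.14 ± 0.42 (SE; 95% interval -1.05 to 0.77; adjusted p = 0.943), and its sign was positive without WD+alcohol 2 (0.16), control 1 (0.02) or control 2 (0.11). Without control 3 it was -0.59.

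Tef, the relative of Dbp, stood at 73.0, 46.6, 91.0, 73.2 and 72.3 CPM in WD+alcohol livers, against 76.3, 117, 45.4 and 84.3 CPM in control livers. Per3, a period gene that the core loop of mice can do without, stood at 15.6, 7.18, 38.1, 22.3 and 17.6 CPM in WD+alcohol livers, against 23.1, 34.7, 8.86 and 18.8 CPM in control livers. Both genes had their lowest values in WD+alcohol 2 and control 3, and their highest in WD+alcohol 3 and control 2, as Dbp did. Their log2 fold changes were -0.13 ± 0.23 for Tef (SE; 95% interval -0.62 to 0.36; adjusted p = 0.884) and -0.11 ± 0.40 for Per3 (SE; 95% interval -0.97 to 0.75; adjusted p = 0.954).

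Ciart, a repressor of CLOCK and BMAL1 also called CHRONO, had the fewest reads of the members (16 to 73 reads a library). It stood at 6.47, 5.04, 5.26, 6.51 and 5.61 CPM in WD+alcohol livers, against 3.79, 3.36, 6.43 and 13.8 CPM in control livers. The WD+alcohol livers were close together, and control 4 was far above the rest. On the log2(CPM + 1) scale the SD of the WD+alcohol livers was 0.145, below the 0.224 that counting alone gives over the 9 libraries. The log2 fold change was -0.04 ± 0.29 (SE; 95% interval -0.67 to 0.60; adjusted p = 0.979), and 0.33 without control 4 (adjusted p = 0.639).

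**Figure D2:**
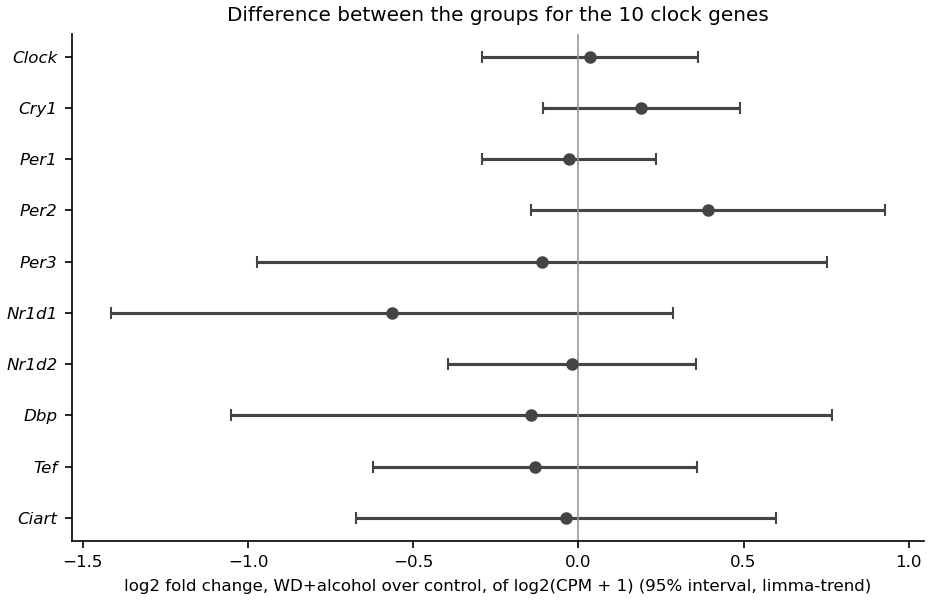
Log2 fold change of each clock gene, WD+alcohol over control, on the log2(CPM + 1) scale, with the 95% interval from limma-trend. All 10 intervals include 0, from -1.42 to 0.29 for Nr1d1 to -0.14 to 0.93 for Per2, and those of Per3, Nr1d1 and Dbp are the widest.

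The intervals leave room for changes of different size. For Clock, Per1 and Nr1d2 they lie between -0.40 and 0.36, while for Dbp, Per3 and Nr1d1 they reach -1.05, -0.97 and -1.42, and a p that misses the threshold does not show equal levels. Dbp had 148 to 595 reads a library, and its SD within groups was 0.86 on the log2(CPM + 1) scale, against 0.0826 that counting alone gives. For Ciart these SDs were 0.54 and 0.224, and for Cry1 0.18 and 0.169, so that the spread of Cry1 was little above that of counting.

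That spread within groups was the main feature of the members. From the lowest to the highest liver of a group, Dbp differed 4.35-fold in WD+alcohol livers and 4.44-fold in control livers, Per3 5.31-fold and 3.91-fold, and Nr1d1 3.80-fold and 4.88-fold. For comparison, the median gene averaging 5 CPM or more differed 1.37-fold in WD+alcohol livers and 1.33-fold in control livers. Ranked by the SD within groups, 99.4% of 11030 such genes varied less than Dbp, 99.3% less than Per3 and 99.2% less than Nr1d1. The percentage was 97.7% for Ciart, 96.7% for Per2, 96.0% for Tef and 86.6% for Nr1d2. Clock (74.3%), Per1 (51.1%) and Cry1 (47.6%) were nearer the middle of this ranking.

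The libraries that stood apart were the same from gene to gene. WD+alcohol 2 was the lowest of its group for 6 of the 10 members (Per3, Nr1d1, Nr1d2, Dbp, Tef and Ciart), and control 3 was the lowest of its group for 6 (Per2, Per3, Nr1d1, Nr1d2, Dbp and Tef). At the other end, WD+alcohol 3 was the highest of its group for 4 members and control 2 for 5, and Per3, Nr1d2, Dbp and Tef were on both lists. Over the 10 members, WD+alcohol 2 lay closer to control 3 than to any liver of its own group, with a root mean square difference of 0.36 on the log2(CPM + 1) scale. Its differences from the other WD+alcohol livers were 0.80 to 1.15, and those of control 3 from the other control livers were 0.87 to 1.28. Among all 36 pairs of libraries this pair ranked 2 for the members, counted from the closest, and 15 over the 11030 genes averaging 5 CPM or more (0.40).

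**Figure D3:**
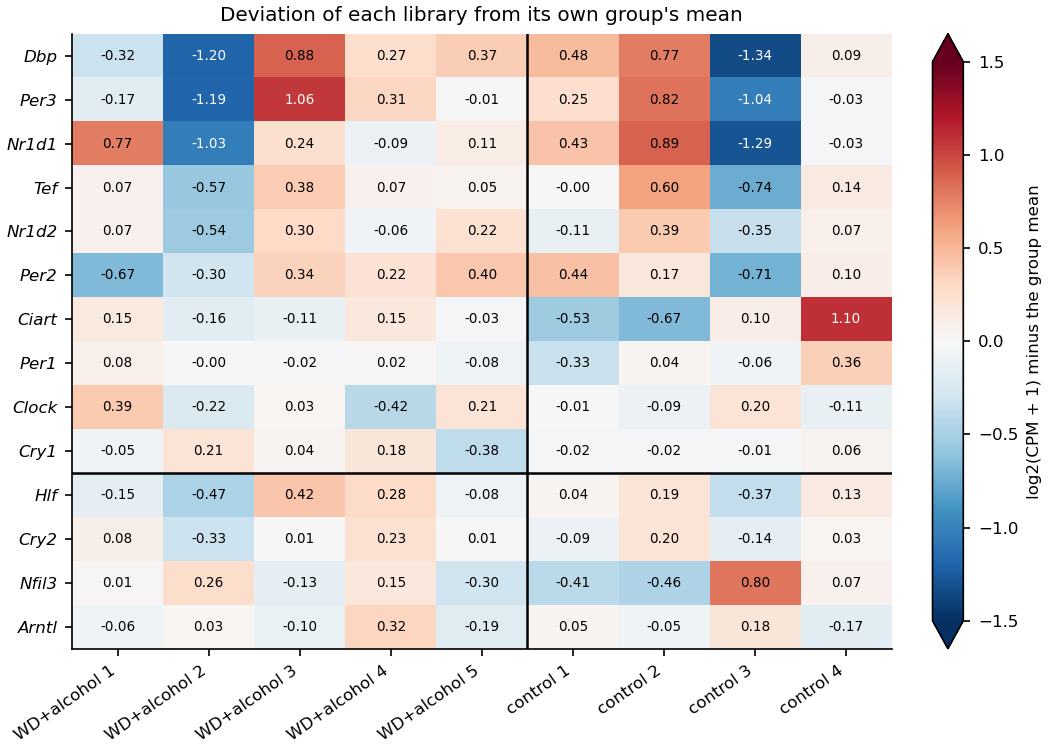
Deviation of each library from its own group's mean, in log2(CPM + 1), for the 10 clock genes (above the line) and 4 partners (below it), WD+alcohol libraries left and control libraries right. WD+alcohol 2 and control 3 are at -1.20 and -1.34 for Dbp and at -1.03 and -1.29 for Nr1d1, while Nfil3 is at 0.26 and 0.80 there.

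Taking Dbp as the gauge, the deviations from the group means of the 9 libraries were compared gene by gene, with an exact test over all 2880 arrangements within groups (two-sided). These permutation tests were not among the planned measures. Over these 9 libraries Per3 followed Dbp with r = 0.96 (permutation p = 0.000694; rho = 0.93, permutation p = 0.00278), and Tef with r = 0.93 (p = 0.00347; rho = 0.70, p = 0.0757). Nr1d2 followed with r = 0.86 (exact permutation p = 0.00729; rho = 0.75, p = 0.0448), Per2 with r = 0.83 (p = 0.0212; rho = 0.80, p = 0.0247), and Nr1d1 with r = 0.81 (p = 0.0299; rho = 0.67, p = 0.0903). Without WD+alcohol 2 and control 3, the libraries farthest from the median of Dbp, r was 0.89 for Per3, 0.76 for Per2, 0.65 for Tef, 0.53 for Nr1d2 and 0.03 for Nr1d1. For Nr1d1 the fall of r also involved WD+alcohol 1, which deviated by 0.77 in Nr1d1 and by -0.32 in Dbp. With all libraries of a group kept, r of Nr1d1 with Dbp was 0.58 within WD+alcohol livers and 0.99 within control livers.

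The remaining members did not follow Dbp over the 9 libraries. Exact permutation gave r = -0.07 for Per1 (p = 0.866; rho = -0.18, p = 0.686), r = -0.14 for Clock (p = 0.735; rho = -0.02, p = 0.980), r = -0.23 for Ciart (p = 0.664; rho = -0.47, p = 0.264) and r = -0.27 for Cry1 (p = 0.528; rho = -0.25, p = 0.550). Without the same libraries r was -0.37 for Per1, -0.35 for Clock, -0.57 for Ciart and 0.02 for Cry1. The same comparison was made for all 11029 other genes averaging 5 CPM or more: 13.5% had an unadjusted permutation p under 0.05, and 0 had an adjusted p under 0.05 (the smallest was 0.139, that of Per3 among others). The relations of single members to Dbp therefore did not pass the adjustment over all genes, with 0.206 for Tef, 0.229 for Nr1d2, 0.299 for Per2 and 0.327 for Nr1d1.

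Of 5 partners of the members, Nfil3 and Hlf varied along with Dbp. Nfil3, the repressor of D-boxes, stood at 27.5, 32.9, 24.8, 30.5 and 22.0 CPM in WD+alcohol livers, against 18.8, 18.1, 44.7 and 26.5 CPM in control livers. It was highest where Dbp was lowest, in WD+alcohol 2 and control 3, with r = -0.84 over the 9 libraries (exact permutation p = 0.00590; rho = -0.83, p = 0.0149) and r = -0.59 without those 2. Hlf, the other relative of Dbp, followed Dbp with r = 0.90 (exact permutation p = 0.00313; rho = 0.80, p = 0.0160; 0.69 without the same libraries). Adjusted over all genes the permutation p was 0.227 for Nfil3 and 0.199 for Hlf. For the other partners exact permutation over the 9 libraries gave r = 0.67 for Cry2 (p = 0.0660; rho = 0.33, p = 0.407; r = -0.04 without the same libraries), r = -0.33 for Arntl (p = 0.392; rho = -0.30, p = 0.450; r = -0.02) and r = -0.20 for Npas2 (p = 0.666; rho = -0.27, p = 0.538; r = -0.11).

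Arntl, which encodes BMAL1, moved little. It stood at 22.4, 23.8, 21.8, 29.4 and 20.4 CPM in WD+alcohol livers, against 28.2, 26.3, 30.9 and 24.1 CPM in control livers, with a log2 fold change of -0.21 ± 0.12 (SE; 95% interval -0.47 to 0.04; adjusted p = 0.515). Npas2, which can replace Clock, was under the filter, at 0.306 to 0.809 CPM in WD+alcohol livers and 0.189 to 1.22 CPM in control livers, or 1 to 7 reads. A group difference in Npas2 was therefore not tested in the main comparison.

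Whether livers of one group differed in clock phase was described by setting the light-phase genes (Nr1d1, Nr1d2, Dbp, Tef, Per3 and Ciart) against the dawn genes (Arntl, Npas2, Clock, Cry1 and Nfil3). Each gene's log2(CPM + 1) was centred on the mean of both group means, and the mean over the dawn genes was taken from the mean over the light-phase genes. This contrast was -0.09, -0.87, 0.44, -0.06 and 0.16 in WD+alcohol livers 1 to 5, and 0.25, 0.65, -1.003 and 0.44 in control livers 1 to 4. Livers of one group thus covered 1.32 in WD+alcohol and 1.65 in controls. WD+alcohol 2 and control 3 were at the low end of both groups, and the ranges were 0.54 and 0.40 without them. In WD+alcohol 2 the light-phase mean was -0.87 and the dawn mean 0.006, below the dawn means of WD+alcohol 1 (0.10) and 4 (0.08). In control 3 the light-phase mean was -0.69 and the dawn mean 0.31. Whether a low contrast marks a shifted phase or a lower level of the light-phase genes was not tested. The ratio of Dbp to Arntl lay between 1.08 and 5.13 in WD+alcohol livers and between 0.831 and 4.34 in control livers, again lowest in WD+alcohol 2 and control 3.

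**Figure D4:**
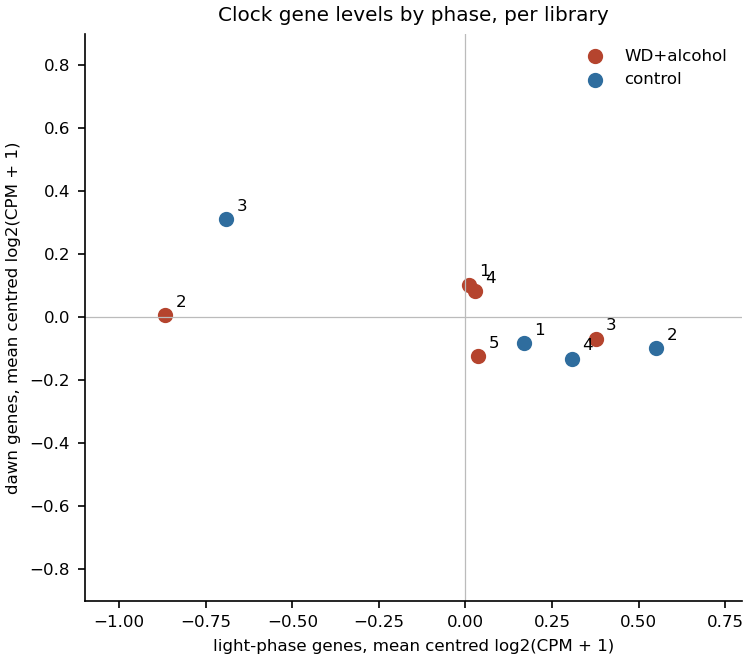
Mean centred log2(CPM + 1) of the light-phase genes (horizontal axis) and of the dawn genes (vertical axis, same scale) in each library, WD+alcohol in red and control in blue, with replicate numbers. WD+alcohol 2 (-0.87) and control 3 (-0.69) are the only libraries left of 0 on the horizontal axis, and control 3 is also the highest on the vertical axis, at 0.31.

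Livers also differed in the order of the genes, not only along this one contrast. WD+alcohol 1 had the highest Nr1d1 of its group with the lowest Per2, and its ratio of Nr1d1 to Dbp was 0.629. That ratio was 0.310, 0.185, 0.223 and 0.241 in WD+alcohol livers 2 to 5, against 0.381, 0.431, 0.392 and 0.361 in control livers. The other 4 WD+alcohol livers were below every control liver and WD+alcohol 1 was above every one, so the groups overlapped. This ratio was not among the planned measures, and a group difference in it was not tested. WD+alcohol 1 was also the library with the fewest reads, and whether that bears on its ratio was not tested. Control 4 had the highest Ciart and Per1 of its group while it was neither highest nor lowest in Dbp, Per2 and Nr1d1.

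Of the other genes of the clock machinery, 17 of 19 were tested and 0 were called with limma-trend, edgeR or DESeq2 (2, 3 and 2 at an unadjusted p under 0.05), against 2.29%, 2.13% and 3.69% of all genes called and 12.2%, 12.5% and 10.7% at an unadjusted p under 0.05. Their median log2 fold change was -0.07. Timeless, a replication fork gene related to a fly clock gene, averaged 8.89 ± 1.63 CPM in WD+alcohol livers and 6.16 ± 1.10 CPM in control livers (log2 fold change 0.46 ± 0.17, SE; adjusted p = 0.226).

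Among 20 genes known to be rhythmic in liver, 1 rose and 2 fell, where 1.61% of all genes rose and 0.678% fell. Elovl3, a fatty acid elongase with a daily rhythm and higher expression in males, fell to 51.2, 31.5, 35.1, 17.1 and 22.4 CPM in WD+alcohol livers, against 89.8, 118, 125 and 70.3 CPM in control livers (log2 fold change -1.71 ± 0.26, SE; adjusted p = 0.00274). Avpr1a, a vasopressin receptor, fell to 2.43, 1.53, 3.94, 1.21 and 1.001 CPM in WD+alcohol livers, against 6.43, 13.9, 12.3 and 6.44 CPM in control livers (log2 fold change -1.84 ± 0.30, SE; adjusted p = 0.00457). Control 3, the lowest control in Dbp, was the highest control in Elovl3. Tsku, a secreted protein of the liver, rose to 18.3, 16.7, 13.3, 12.1 and 21.4 CPM in WD+alcohol livers, against 5.11, 4.20, 7.65 and 11.2 CPM in control livers (log2 fold change 1.16 ± 0.24, SE; adjusted p = 0.0186). The call of Tsku was lost without WD+alcohol 5 (adjusted p = 0.0597), without control 1 (0.0637) and without both WD+alcohol 2 and control 3 (0.0652). The median log2 fold change of these 20 genes was 0.04.

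Genes that answer the signals that set the liver clock were not called between the groups, with 0 of 7 glucocorticoid-responsive, 0 of 7 heat and cold responsive and 0 of 7 immediate early genes by limma-trend, edgeR or DESeq2, which called 2.29%, 2.13% and 3.69% of all genes. Of the glucocorticoid-responsive genes 1 had an unadjusted p under 0.05 with limma-trend, 1 with edgeR and 0 with DESeq2, and of the other lists 0 with each, against 12.2%, 12.5% and 10.7% of all genes. Mt1, Mt2 and Tat of the glucocorticoid-responsive list differed widely between livers of one group, while Sgk1 of that list stood at 52.0 to 66.8 CPM in WD+alcohol livers and 53.4 to 68.4 CPM in control livers. Mt1, a metallothionein that glucocorticoids and metals induce, stood at 1623, 3604, 1202, 2990 and 1145 CPM in WD+alcohol livers, against 272, 392, 4219 and 3053 CPM in control livers. It was highest in WD+alcohol 2 and control 3, next in WD+alcohol 4 and control 4, and controls 1 and 2 were below every other liver. Tat, an amino acid-degrading enzyme of the same list, stood at 127, 389, 137, 236 and 138 CPM in WD+alcohol livers, against 195, 227, 720 and 501 CPM in control livers (log2 fold change -0.93 ± 0.39, SE; adjusted p = 0.330). Tat shared the order of Mt1 at its upper end, with WD+alcohol 2 and control 3 first and WD+alcohol 4 and control 4 second. Other genes of the list had other orders. Fkbp5 was highest in WD+alcohol 4 (81.1 CPM) and control 4 (88.5 CPM), and Zbtb16 in WD+alcohol 5 (8.81 CPM) and control 3 (8.52 CPM). Tsc22d3 and Sgk1 were highest in WD+alcohol 2 (71.7 and 66.8 CPM) and control 4 (87.9 and 68.4 CPM).

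Lpin1, a phosphatidic acid phosphatase of the rhythmic list that fasting induces, was picked out after its values were seen. It stood at 109, 111, 60.2, 252 and 142 CPM in WD+alcohol livers, against 77.4, 121, 699 and 828 CPM in control livers (log2 fold change -1.16 ± 0.62, SE; adjusted p = 0.489). Controls 3 and 4 were far above controls 1 and 2 and above every WD+alcohol liver.

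**Figure D5:**
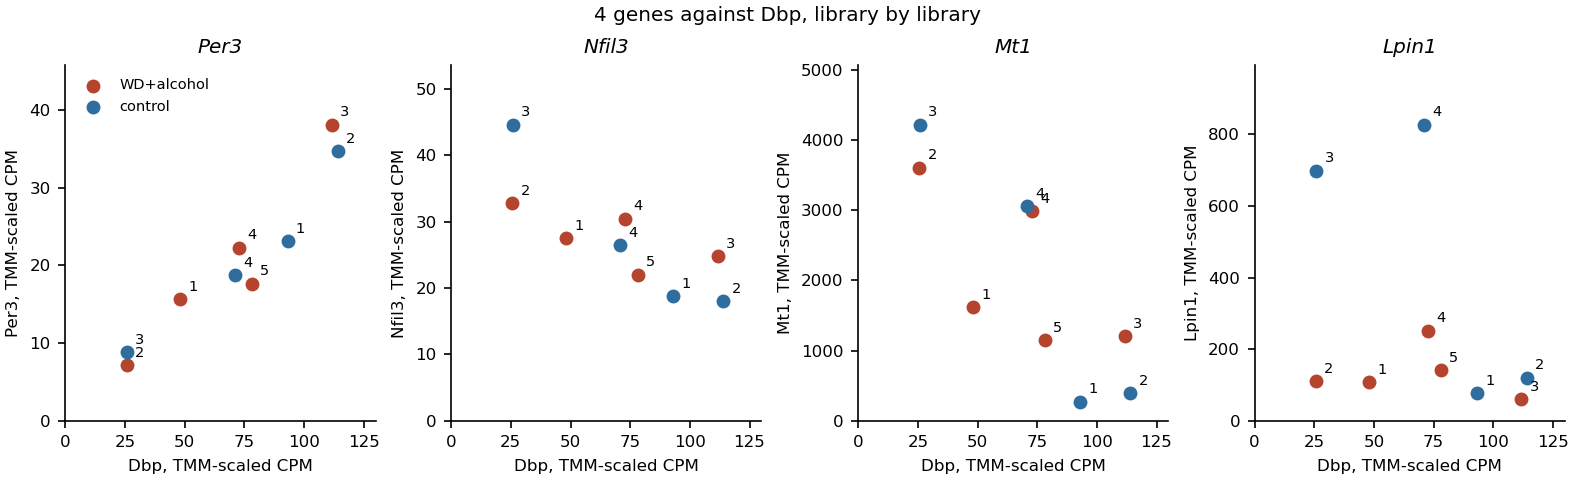
TMM-scaled CPM of Per3, Nfil3, Mt1 and Lpin1 (vertical axes) against that of Dbp (horizontal axis), WD+alcohol in red and control in blue, with replicate numbers. Per3 rises with Dbp from 7.18 CPM in WD+alcohol 2 to 38.1 CPM in WD+alcohol 3, Nfil3 and Mt1 are highest at the lowest Dbp, and Lpin1 is high in controls 3 and 4 only.

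Some other measures moved with the same libraries, and others did not. The summed level of 6 Kupffer cell and macrophage markers was 276 to 454 CPM in WD+alcohol livers and 71.3 to 149 CPM in control livers. The sums of WD+alcohol 2 and control 3 were the lowest of their groups, 6 of 6 were called higher with WD+alcohol, and none was at 0. Clec4f, Vsig4 and Cd5l were each lowest in those libraries. Adgre1 and Csf1r were lowest of their groups in WD+alcohol 3 and control 3, and Cd68 in WD+alcohol 4 and control 2. The 5 endothelial markers summed to 121 to 155 CPM in WD+alcohol livers and 75.4 to 128 CPM in control livers, the sums again lowest in WD+alcohol 2 and control 3. By single genes, Pecam1 was highest of its group in WD+alcohol 2, and Lyve1 was lowest among controls in control 1. The 7 immediate early genes, at 498 to 622 CPM in WD+alcohol livers and 479 to 613 CPM in control livers, had their highest sums in those libraries. By single genes this held for Fosb, Jun and Junb, while Ier2 was lowest among controls in control 3, at 20.3 CPM. The 7 heat and cold responsive genes, at 526 to 600 CPM in WD+alcohol livers and 537 to 597 CPM in control livers, had their highest sums there as well. By single genes this held for Hspa1a, Hsph1 and Hsp90aa1. Hsp90aa1 made up most of these sums, at 297 to 343 CPM in WD+alcohol livers and 307 to 351 CPM in control livers. Cirbp was highest of its group in WD+alcohol 2 (40.2 CPM) but lowest among controls in control 3 (34.8 CPM). Rbm3 was also lowest among controls in control 3 (2.61 CPM). Reads numbered 6279808 in WD+alcohol 2 and 5910285 in control 3, so neither was among the shallowest. The hepatocyte markers, of which 3 of 5 tested fell, summed to 26662 to 37995 CPM in WD+alcohol livers and 40967 to 61719 CPM in control livers. WD+alcohol 2 was lowest there, but control 3 was not. The 5 stellate cell markers, of which 1 rose, summed to 2351 to 2710 CPM in WD+alcohol livers and 2315 to 2617 CPM in control livers, with the highest sums in WD+alcohol 2 and control 3. Col1a1 made up most of these sums, at 1859 to 2217 CPM in WD+alcohol livers and 1924 to 2174 CPM in control livers. Dcn, the marker that rose, was lowest of its group in WD+alcohol 2 (133 CPM) and control 3 (79.6 CPM), and so was Lrat (2.29 CPM in WD+alcohol 2 and 2.95 CPM in control 3). Of the remaining lists the 5 cholangiocyte markers summed to 212 to 257 CPM in WD+alcohol livers and 217 to 235 CPM in control livers, and the 5 neutrophil markers to 21.0 to 42.6 CPM in WD+alcohol livers and 9.87 to 23.1 CPM in control livers. T and NK cell markers summed to 3.38 to 9.61 CPM in WD+alcohol livers and 1.98 to 5.56 CPM in control livers, B cell markers to 183 to 226 CPM in WD+alcohol livers and 177 to 233 CPM in control livers with Cd79a listed at 0, and adipocyte markers to 17.4 to 36.6 CPM in WD+alcohol livers and 8.07 to 15.9 CPM in control livers with Lep listed at 0. Fabp4 made up most of the adipocyte sums, at 17.1 to 35.6 CPM in WD+alcohol livers and 8.07 to 15.9 CPM in control livers. Adipoq, Plin1 and Retn were at 0 in every control liver and at most 1.08 CPM in WD+alcohol livers. The cholangiocyte sum was highest of its group in WD+alcohol 2 but lowest in control 3. Neutrophil and adipocyte sums were highest in WD+alcohol 5 and control 4. The B cell sum was highest in WD+alcohol 2 and control 4, and the T and NK cell sum in WD+alcohol 5 and control 3. Of these 5 lists, 1 adipocyte marker rose, Fabp4, the only 1 of its list that was tested. The other lists had 0 called with limma-trend (at an unadjusted p under 0.05, 1 cholangiocyte, 2 neutrophil, 1 T and NK cell and 0 B cell markers). The part of cell makeup, time of collection, feeding state or handling in the spread of the clock genes was not tested.

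The genes most like Dbp were taken as those with the highest and lowest correlation of deviations with Dbp over the 9 libraries, among 10213 genes outside the lists averaging 5 CPM or more. The highest were Lipe, hormone-sensitive lipase (r = 0.98), Cebpa, a liver transcription factor (0.98), Cyp2d13 (0.98), the potassium channel gene Kcnk5 (0.97), Acot4, a peroxisomal thioesterase (0.97), Amdhd2 (0.97), Cmtm8 (0.97) and Vkorc1, the vitamin K reductase (0.97). The lowest were the helicase gene Ddx3x (-0.98), the topoisomerase gene Top2a (-0.97), Dkk3 (-0.96) and Mat2a, a methionine adenosyltransferase (-0.96). They were chosen for these values, which are therefore a description, and Cyp2d13 belongs to a family whose copies could share reads. Cebpa stood at 92.7, 64.9, 128, 98.8 and 121 CPM in WD+alcohol livers, against 131, 132, 59.1 and 112 CPM in control livers, and was lowest in WD+alcohol 2 and control 3. Kcnk5 stood at 5.66, 3.21, 10.1, 6.82 and 9.01 CPM in WD+alcohol livers, against 14.8, 16.6, 3.13 and 10.04 CPM in control livers. Within each group both genes put the livers in the order of Dbp.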

How the data were processed

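Liver RNA of 5 WD+alcohol and 4 control mice was sequenced from transcript 3′ ends. Per the submitters' processing notes, reads were handled with Trim Galore 0.6.0, cutadapt 1.18, STAR, HTSeq 0.11.0 and edgeR 3.28.1 in R 3.6.3, on GRCm39; no source used here gives the strand setting, so overlapping genes on opposite strands could share reads. The deposited values are a signal in CPM that the authors scaled by TMM factors, as the table's name says. Since 100% of positive values were whole multiples of the smallest of their library (relative tolerance 1e-06), whole reads were recovered, 3635860 to 6643645 a library. Column sums were 959495 to 1061154.

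Genes averaging 1 CPM or more were tested with limma-trend (limma 3.58.1, R 4.3.3) on log2(CPM + 1), a scale that understates changes of low genes, and p-values were Benjamini-Hochberg adjusted over all 14759 genes, with a threshold of 0.05. edgeR 4.0.16 and DESeq2 1.42.0 were run on the recovered reads as alternatives, since the values are not counts. Tested on simulated data with 14717 genes, limma-trend recovered 30.3% of 1.5-fold, 66.7% of 2-fold and 93.8% of 4-fold changes. The changed genes were drawn at random, so these rates need not hold for the members. Dbp, Per3 and Nr1d1 varied more within groups than 99.4%, 99.3% and 99.2% of genes averaging 5 CPM or more. The members and lists were chosen with earlier results of these data known. Named genes were the 10 members, Arntl, Npas2 and Nfil3, the called genes and 2 of lowest p of each other list (heat and cold responsive and immediate early genes by their list values and in the closing section), and the 8 most and 4 least like Dbp. The values of 1 further gene that this rule names are not reported here.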

Additional observations from a re-analysis of the deposited data

Results flagged for a closer look

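In 5 of 74 groups of values examined (6.76%, where chance gives about 1 in 20), 1 library lay apart from the rest of its group by Dixon's 95% criterion, each time among the controls. Cry1 was 11.4 CPM in control 4, against 10.7 to 10.8 CPM in the other controls. Control 4 held 60 Cry1 reads, inside the 51 to 65 reads of the other controls. The control SD of Cry1 was below that of counting alone, so this flag does not set control 4 apart. In control 3, Cirbp, a cold-induced RNA-binding protein gene, was 34.8 CPM (41.4 to 41.7 CPM in the other controls), Acot4 was 16.9 CPM (37.5 to 41.0 CPM), Vkorc1 was 86.0 CPM (123 to 126 CPM) and Dkk3 was 87.2 CPM (69.8 to 71.6 CPM). Acot4, Vkorc1 and Dkk3 had been chosen for following or opposing Dbp, which is itself lowest in control 3, so they add no separate sign that this library stands apart.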

How the results depend on the processing

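Under 20 alternatives, none of the 200 member values was called, and the lowest adjusted p was 0.167 (limma-trend, Nr1d1 without both WD+alcohol 2 and control 3, a setting chosen after seeing the data). Signs changed under 4 alternatives for Clock, Nr1d2 and Ciart, 3 for Dbp and 2 for Per1, Per3 and Tef, and under 0 for Per2, Cry1 and Nr1d1. Over all genes, 338 calls became 545 with DESeq2 and 201 to 387 when 1 library was left out, lowest without WD+alcohol 5, and 247 without both WD+alcohol 2 and control 3. With the replicate number as a block there were 112 calls and Tsku was not called (adjusted p = 0.194, limma-trend), but same-numbered livers did not vary together (correlations -0.01, -0.42, -0.28 and -0.01), so they share only a number. Calls among the rhythmic output genes numbered 2 to 4 over all settings. The range of the light-phase minus dawn contrast in WD+alcohol livers was 2.20 with Dbp minus Arntl alone and 0.54 to 1.32 when 1 liver was left out; in control livers, at 1.65, it was 2.33 with Dbp minus Arntl, 1.97 with medians over the genes and 0.40 to 1.65 when 1 liver was left out. The cause of these shifts was not tested. Depth limits Npas2 and Ciart, with 1 to 7 and 16 to 73 reads a library. No source used here gives the hour at which each liver was taken, and p-values measure the spread between these libraries only.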

Other observations

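The heat and cold responsive and immediate early genes of lowest p differed little between the groups. Cirbp had a log2 fold change of -0.16 (limma-trend adjusted p = 0.539), and Dnajb1, a heat shock co-chaperone gene, one of 0.08 (adjusted p = 0.822). Atf3, a stress-induced transcription factor gene, had a log2 fold change of 0.18 (limma-trend adjusted p = 0.540), and Ier2, an immediate early gene, one of 0.07 (adjusted p = 0.867). Atf3 was highest in WD+alcohol 2, at 50.9 CPM, with 34.5 to 41.6 CPM in the other WD+alcohol livers and 33.6 to 38.2 CPM in control livers.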
